A study of Mus musculus with 6 samples.

Results

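The genes described here repair DNA double-strand breaks and crosslinks. They are the genes of homologous recombination and the Fanconi anaemia pathway, together with those of end joining and of break signalling. The list named 37 genes, and 35 of them had a probe set annotated with exactly 1 gene symbol among the 19308 genes so annotated on the array. The other 2 were not analysed here. Where a gene had several such probe sets, the one with the highest mean over the 6 arrays stood for it. That choice mattered for 2 members, Bard1 and Nbn.

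RNA was measured on Affymetrix arrays, with 3 samples of iPS (induced pluripotent stem) cells, fibroblasts turned pluripotent by added factors, and 3 of ntES (nuclear transfer embryonic stem) cells, lines grown from embryos that received a fibroblast nucleus. Both kinds of cell came from tail-tip fibroblasts of G3 Terc-/- mice, the third generation bred without Terc, the RNA template of telomerase. All 6 samples therefore lacked Terc, and no array of cells with telomerase was in the comparison. Both were grown on feeder layers of mouse embryonic fibroblasts treated with mitomycin C, a DNA crosslinking drug that stops their division, so that feeder RNA may be in every sample. The labels give no sex, passage or clone. The design describes 3 biological repeats of each cell line, and where a group holds a single line, that line and the way of reprogramming cannot be told apart. No label says that the repeats are separate cultures, so a p-value here is set by sample-to-sample spread that may be technical.

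Homologous recombination copies a broken stretch from the sister chromatid and works in S and G2 phase. The break ends are cut back, BRCA proteins load a recombinase onto the single strand, and a filament of recombinase and its paralogs searches for the matching sequence. The Fanconi proteins recognise strands that are crosslinked to each other, and their core complex attaches ubiquitin to the FANCD2 and FANCI pair. End joining seals breaks without a template. Embryonic stem cells divide quickly and are known to rely strongly on recombination, and short telomeres, which can be read as broken ends, engage the same kinases.

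Of the 35 members, 3 were lower in ntES cells and none was higher (limma, adjusted p under 0.05 over all probe sets). Xrcc3, a paralog of the recombinase, Rad52, which anneals single strands, and Fanca, a subunit of the Fanconi core complex, fell 1.50-fold, 1.36-fold and 1.32-fold. The other 32 members, among them Brca1, Brca2, Palb2, Atm, Atr and Fancd2, did not pass. Over the whole array 11.3% of probe sets were called, 6.13% lower and 5.19% higher in ntES cells. Among the brighter probe sets, at or above the median probe set, 10.4% were called lower and 6.96% higher, and 33 of the 35 members lay in that part. The members' share called lower, 8.57%, lay between the 2 background shares. At an unadjusted p under 0.05 there were 4 members of 35, these 3 and Lig4, where 24.6% of all probe sets and 34.4% of the brighter ones passed.

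The median difference over the members was -0.045 (log2, ntES minus iPS), turning to 0.0019 after quantile normalization and to -0.10 after centring each array on its median. It was 0.038 over all 23344 probe sets and -0.018 over the brighter ones. Differences of members ran from -0.58 to 0.24, with 19 below 0 and 16 above. For the 32 members that did not pass, the 95% intervals of the difference all lay between -0.44 and 0.50. Those bounds correspond to a level 1.36-fold lower and 1.41-fold higher in ntES cells. The adjusted p of these members lay between 0.115 and 0.975. In bulk RNA, fewer cells of a type and less RNA per cell cannot be told apart.

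**Figure D1:**
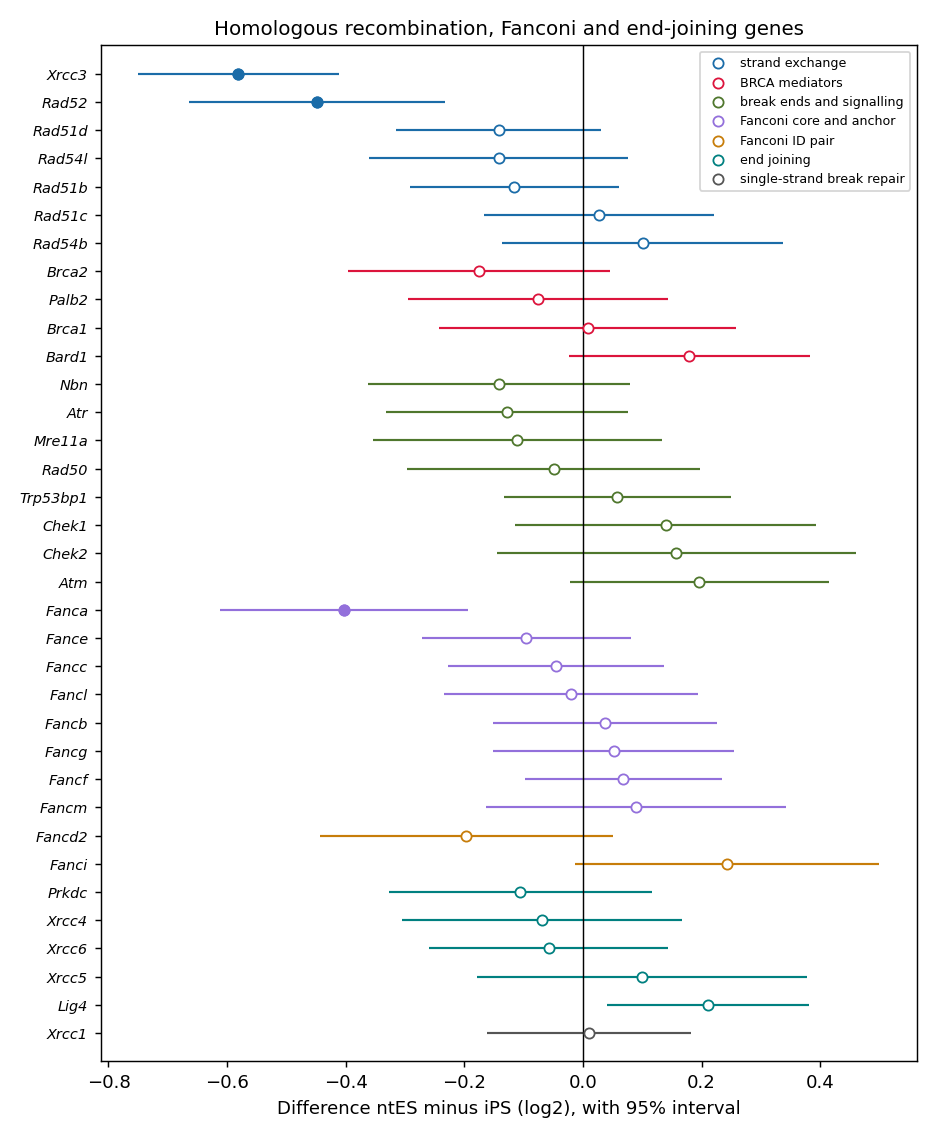
Difference between ntES and iPS cells (log2, horizontal axis) for each of the 35 members, grouped by role, with the 95% interval of limma's fit. Filled points passed an adjusted p of 0.05: Xrcc3 at -0.58, Rad52 at -0.45 and Fanca at -0.40. Open points did not.

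Both of the lower recombination genes were in the group listed for strand exchange, which holds recombinase paralogs, Rad52 and the Rad54 genes. They were 2 of its 7 measured genes, beside 6.13% called lower over all probe sets and 10.4% among the brighter ones. Whether this group differed from the other members was not tested. Xrcc3 works in a pair with Rad51c that stabilises the filament and helps to resolve recombination intermediates. It read 9.14, 9.10 and 9.07 on iPS arrays 1 to 3, and 8.48, 8.57 and 8.51 on ntES arrays 1 to 3 (log2). The groups stood well apart, with means of 9.10 ± 0.03 and 8.52 ± 0.05 (SD, n = 3 each). The difference was -0.58 ± 0.08 (SE), at an adjusted p of 0.00107 by limma, and it passed under each alternative setting and each left-out array.

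The bases before the Xrcc3 start are shown because this gene had the largest difference of the members. The sequence is RefSeq's for build GRCm38.p6, chr12:111813894-111814129, minus strand, and it stops where the annotated gene begins. Capitals mark CCAAT, the box bound by NF-Y, and GGGCGG, the box bound by Sp factors, each on either strand.
Xrcc3: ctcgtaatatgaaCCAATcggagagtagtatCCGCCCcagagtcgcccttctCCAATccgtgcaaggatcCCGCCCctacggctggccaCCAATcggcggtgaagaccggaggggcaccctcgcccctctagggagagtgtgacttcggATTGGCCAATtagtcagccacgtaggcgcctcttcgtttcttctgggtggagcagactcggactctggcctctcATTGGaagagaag

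This stretch of 236 bases held CCAAT 6 times and GGGCGG 2 times, 2 of the CCAAT matches overlapping in ATTGGCCAAT. At least 1 CCAAT occurred in 32.7% of all 32851 promoter windows cut to the same length, and at least 1 GGGCGG in 30.8%. A match of letters is a description of the window and not a measured binding site.

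Rad52 can anneal complementary strands and acts beside the BRCA route in mammals. It read 9.09, 9.14 and 8.92 on the iPS arrays and 8.46, 8.62 and 8.73 on the ntES arrays. The groups did not overlap, but the lowest iPS array and the highest ntES array were 8.92 and 8.73. The difference was -0.45 ± 0.10 (log2, SE; adjusted p = 0.0149, limma). The call was lost on leaving out either of iPS replicates 1 and 2 (adjusted p = 0.0831 and 0.0963, limma) or ntES replicate 2 (0.0777). It was also lost with the unmoderated test, at 0.122. The difference was -0.43, -0.40 and -0.46 without these arrays in that order. Over all probe sets the 1431 lower calls became 562, 547 and 545 there, and 369 with the unmoderated test. The promoter window listed for Rad52 lay wholly inside the annotated span of the gene and is not printed.

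The remaining 5 genes of this group did not pass. Rad51c, the partner of Xrcc3, read 8.22, 8.19 and 8.12 in iPS and 8.07, 8.22 and 8.32 in ntES cells. Its groups overlapped fully, and the difference was 0.028 with a 95% interval from -0.17 to 0.22. The paralogs Rad51b and Rad51d, which act in a complex with Rad51c, differed by -0.12 and -0.14, and on both the 3 ntES arrays lay below the 3 iPS arrays. The motor proteins Rad54l and Rad54b, which remodel the filament on chromatin, differed by -0.14 and 0.10, with overlapping groups. In all, the groups did not overlap for 5 members in the lower direction and 2 in the higher. Over all probe sets 12.9% were so separated downward and 13.6% upward, and among the brighter ones 19.4% and 15.4%.

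None of the BRCA genes, which bring the recombinase to the break, passed. Brca1 read 9.59, 9.61 and 9.41 in iPS and 9.31, 9.61 and 9.71 in ntES cells. The ntES arrays spanned the whole range of the iPS arrays, and the difference was 0.0079 with a 95% interval from -0.24 to 0.26. Brca2, which loads the recombinase, read 9.79, 9.81 and 9.61 in iPS and 9.40, 9.59 and 9.69 in ntES cells. Its groups overlapped, at -0.18 ± 0.10 (log2, SE; adjusted p = 0.316, limma). Palb2, the bridge between the BRCA proteins, differed by -0.075.

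Bard1, the partner that forms a ubiquitin ligase with Brca1, differed by 0.18 on its brightest probe set. Its other probe sets went the other way, at -0.17 and -0.15, and none of the 3 passed, so no direction can be given for the gene. Nbn was likewise split, at -0.14 on its brightest probe set and 0.084 on the other.

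Genes that sense breaks and signal from them did not pass. The sensor subunits Mre11a, Rad50 and Nbn, which hold the ends together and activate the Atm kinase, differed by -0.11, -0.049 and -0.14. Atm itself read 8.89, 9.00 and 8.78 in iPS and 8.97, 9.04 and 9.25 in ntES cells. One iPS array lay above the lowest ntES array, and the difference was 0.20 ± 0.10 (log2, SE; adjusted p = 0.256, limma). Atr, the kinase of single-stranded DNA and stalled forks, read 8.92, 8.91 and 8.82 in iPS and 8.60, 8.78 and 8.88 in ntES cells. It differed by -0.13, with 1 ntES array inside the iPS range.

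The checkpoint kinases that Atm and Atr switch on did not pass either. Chek1, the target of Atr, read 10.42, 10.47 and 10.14 in iPS and 10.32, 10.47 and 10.66 in ntES cells. The groups overlapped, at 0.14 with a 95% interval from -0.11 to 0.39. Chek2, the target of Atm, differed by 0.16 and had the widest spread of the ntES values, with an SD of 0.31. Trp53bp1, which shields ends from being cut back and so favours end joining, read 8.75, 8.57 and 8.59 in iPS and 8.61, 8.71 and 8.76 in ntES cells. It differed by 0.058, and its groups overlapped.

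**Figure D2:**
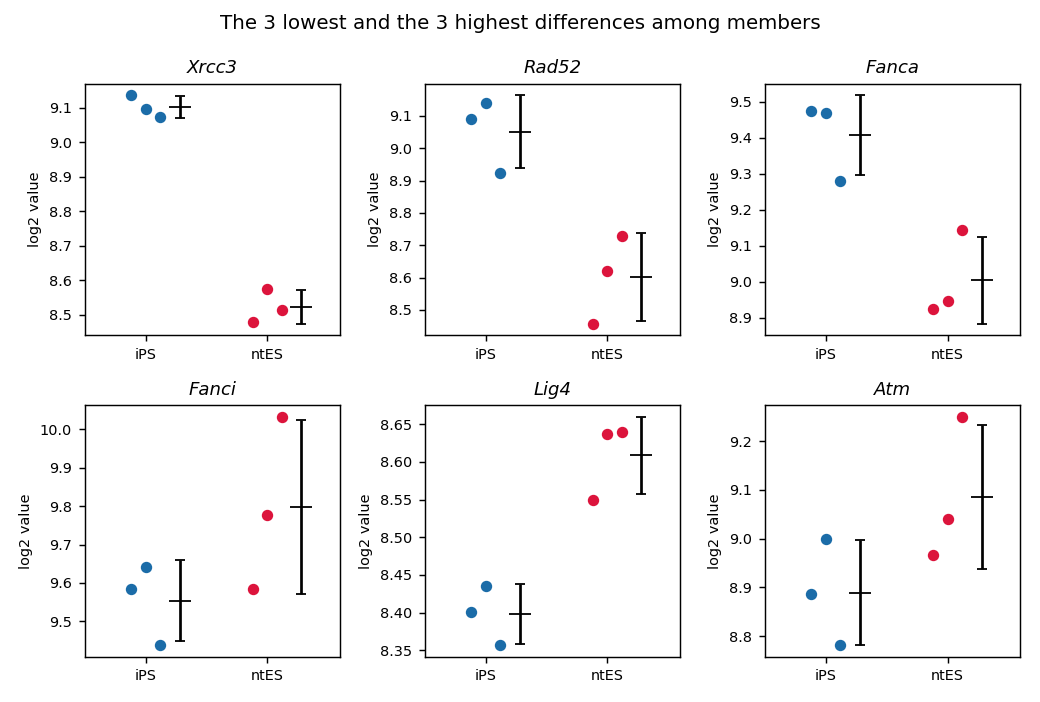
Values on each array (log2, vertical axis, a separate scale per gene) for the members with the 3 lowest and the 3 highest differences. Points are arrays in the order of replicates 1 to 3, and the bar beside them is the mean ± SD of 3 arrays. The groups do not overlap for Xrcc3, Rad52, Fanca and Lig4 and overlap for Fanci and Atm, and only the upper row passed the test.

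In the Fanconi pathway 1 subunit of the core complex, Fanca, was called lower, and whether it differed from its partners was not tested. Fanca forms a subcomplex with Fancg that helps to build the core complex. It read 9.47, 9.47 and 9.28 on the iPS arrays and 8.92, 8.95 and 9.14 on the ntES arrays. The groups did not overlap, and the difference was -0.40 ± 0.09 (log2, SE; adjusted p = 0.0213, limma). The call was lost on leaving out each of the same 3 arrays (adjusted p = 0.113, 0.122 and 0.128, limma). The difference stayed at -0.37 in each of these fits. It was also lost with the unmoderated test, at an adjusted p of 0.128. Calls over all probe sets fell in these fits too, as given for Rad52.

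The bases before the Fanca start are shown for comparison with Xrcc3, with the same letters in capitals. They are RefSeq's for GRCm38.p6, chr8:123318652-123318826, minus strand, and stop where the annotated gene begins.
Fanca: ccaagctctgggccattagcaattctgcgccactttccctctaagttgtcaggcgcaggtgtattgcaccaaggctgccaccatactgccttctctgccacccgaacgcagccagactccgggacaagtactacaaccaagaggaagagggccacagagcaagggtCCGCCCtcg

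These 175 bases held GGGCGG 1 time and CCAAT 0 times. The remaining 75 bases of the window, which lie inside the annotated gene and are not printed, held CCAAT 2 times. Of all promoter windows cut to this length, 20.2% held GGGCGG and 24.1% held CCAAT. Both boxes are common. Over whole windows of 250 bases, GGGCGG was found in 18 of the 29 members with a window (33 windows) and CCAAT in 15. Over all windows the shares were 32.7% and 33.8%.

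The other core subunits Fancb, Fancc, Fance, Fancf, Fancg and Fancl, the last of which is the ubiquitin ligase, differed by amounts between -0.095 and 0.068. Fancm, which anchors the complex on DNA, differed by 0.089. Fancf had the same value, to 6 decimals, on all 3 iPS arrays, 8.86, and was higher on each ntES array, at 8.89, 8.92 and 8.97. Its difference of 0.068 did not pass (adjusted p = 0.619, limma). Ties between arrays also occurred in other members, within and across the groups. Xrcc1 read 9.00198 on iPS arrays 1 and 2 and ntES array 2, and Fanci 9.58354 on array 1 of both groups. The origin of these ties was not tested.

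The pair that the core complex modifies differed in opposite directions without passing. Fancd2 read 9.50, 9.55 and 9.37 in iPS and 9.04, 9.33 and 9.45 in ntES cells. Its groups overlapped, at -0.20 ± 0.11 (log2, SE; adjusted p = 0.314, limma). Fanci read 9.58, 9.64 and 9.44 in iPS and 9.58, 9.78 and 10.03 in ntES cells. The highest ntES array stood above the rest, and the difference was 0.24 ± 0.12 (log2, SE; adjusted p = 0.229, limma). Without ntES replicate 1 it was 0.35, at an adjusted p of 0.04999 by limma. Whether these partner genes differed from each other was not tested.

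Of the end-joining genes none passed. Lig4, the ligase that seals the joined ends, read 8.40, 8.44 and 8.36 in iPS and 8.55, 8.64 and 8.64 in ntES cells. All 3 ntES arrays lay above all 3 iPS arrays, at 0.21 ± 0.08 (log2, SE; adjusted p = 0.115, limma). Xrcc4, its scaffold, differed by -0.069. Prkdc, the catalytic subunit of the DNA-dependent kinase, read 9.10, 9.11 and 8.96 in iPS and 8.78, 8.96 and 9.11 in ntES cells, with nearly the same range at the upper end. It differed by -0.11. The Ku subunits Xrcc5 and Xrcc6, which bind the ends, differed by 0.099 and -0.058. Xrcc1, a scaffold of single-strand break repair, differed by 0.011 with a 95% interval from -0.16 to 0.18.

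Within a group, these genes moved together from array to array. On ntES replicate 1 all 35 members had their lowest ntES value, and on ntES replicate 3 all but Xrcc3 had their highest, 34 of 35. On iPS replicate 3, 31 members had their lowest iPS value, as had 71.3% of the probe sets in the members' range of levels. The mean over the members was 8.98, 8.98 and 8.85 on iPS arrays 1 to 3 and 8.75, 8.90 and 9.03 on ntES arrays 1 to 3. The 10987 probe sets with means in the range of the members moved the same way, at 8.85, 8.84 and 8.75 in iPS and 8.69, 8.80 and 8.91 in ntES cells. Of those probe sets, 81.0% were lowest on ntES replicate 1 and 79.0% highest on ntES replicate 3 among the ntES arrays.

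The overall spread of an array, as the SD over all its probe sets, was lowest on ntES replicate 1 (1.51) and highest on ntES replicate 3 (1.74). Array medians differed by at most 0.088. The members' SD was larger in ntES than in iPS cells for 31 of 35, with medians of 0.14 and 0.067. After quantile normalization, which gives all arrays 1 distribution, 5 members were called lower and 7 higher, where 30.1% of all probe sets were called. Those called higher were Fanci, Atm, Lig4, Bard1, Chek1, Rad54b and Fancm, at 0.14 to 0.30, and Rad51b and Rad51d joined the lower ones. Centring each array on its median kept the 3 lower calls and added no higher one, while over all probe sets it changed the split from 1212 higher and 1431 lower to 823 and 1911.

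**Figure D3:**
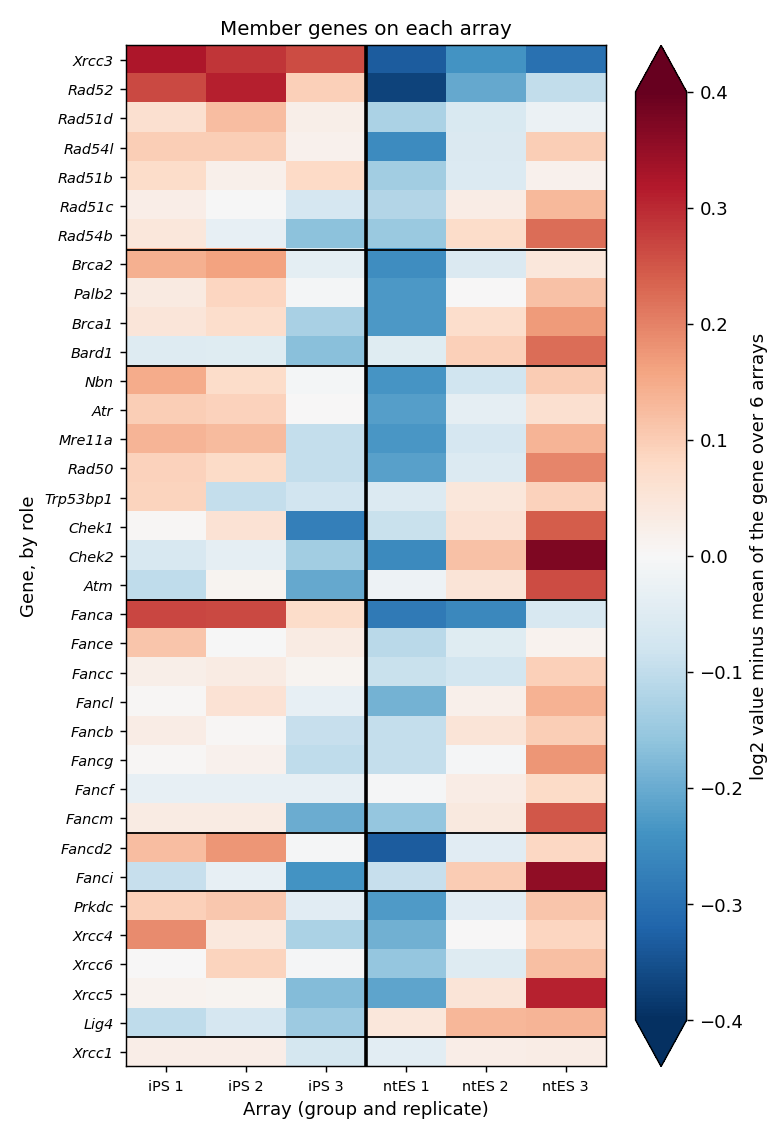
Value of each member on each array minus the mean of that gene over the 6 arrays (log2, colour), with genes grouped by role and a black line between iPS and ntES arrays. The column of ntES replicate 1 is blue for nearly all genes and that of ntES replicate 3 red for most. Xrcc3, Rad52 and Fanca change colour between the groups. Rad51d and, in the other direction, Lig4 also do so by smaller amounts, without passing the test.

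The 3 lower members lay beside other genes that were lower as well. For each member the 10 nearest genes on either side were taken, among 9674 genes at or above the median probe set, in the gene order of GRCm38.p6. The median difference of those 9674 genes was -0.018. Beside Xrcc3, on chromosome 12, 18 of the 20 neighbours were below 0 and 10 were called lower, with a median of -0.30. Beside Rad52, on chromosome 6, 17 were below 0, with a median of -0.38, and 9 were called lower and 1 higher. Beside Fanca, on chromosome 8, 14 were below 0, with a median of -0.19, and 7 were called lower and 1 higher. Among the brighter probe sets 10.4% were called lower and 6.96% higher. For members that did not pass, neighbours below 0 ranged from 2 beside Atr to 17 beside Rad51d. At most 4 of their neighbours were called lower, beside Rad51c.

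Relative to the median of its neighbours Xrcc3 was lower by a further 0.28, and Fanca by 0.21. Rad52 stood only 0.067 below its neighbours. For the 32 members that did not pass, the neighbour medians lay between -0.19 and 0.21, and their own median was -0.0019. The lowest of these belonged to Fancd2, also on chromosome 6, where gene and neighbours were at -0.20 and -0.19. Atr and Brca2 went against theirs, at -0.13 and -0.18 beside neighbour medians of 0.21 and 0.15. Xrcc3 overlaps Klc1 and Fanca overlaps Zfp276 in the annotation. Klc1 and Zfp276 differed by -0.24 and -0.11 and did not pass. The strand and bases that these probes read were not analysed here.

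A list of 94 further genes of recombination, fork protection, end joining and break signalling had 88 measured. Of these, 10 were lower in ntES cells and none was higher, with a median difference of -0.060. That is 11.4% called lower, again close to the 10.4% among the brighter probe sets, of which 6.96% were called higher. Recql, a helicase, and Rad51ap1, which helps the recombinase to pair strands, fell most, by 0.86 and 0.82. Mdc1, the scaffold that reads the histone mark at breaks, and H2ax, the histone that carries it, fell by 0.64 and 0.57. Hrob, which recruits a helicase to late recombination steps, fell by 0.53, and Babam1, of the complex that binds ubiquitin at breaks, by 0.50.

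On Recql the iPS arrays read 9.42, 9.57 and 9.29 and the ntES arrays 8.48, 8.56 and 8.67 (adjusted p = 0.000398, limma). The lowest iPS array thus stood well above the highest ntES array. Recql and Rad51ap1 lie on chromosome 6, as Rad52 does, and their neighbour medians were -0.52 and -0.36. Over chromosome 6 as a whole the median was -0.20 in 464 genes. Relative to the median of its neighbours Recql stood at -0.33 and Rad51ap1 at -0.46. H2ax, Mdc1, Babam1 and Hrob stood at -0.50, -0.51, -0.49 and -0.41 relative to theirs. Those neighbour medians were -0.073, -0.13, -0.011 and -0.12. The other 4, named after their values were seen, were Rad9a and Kat5 on chromosome 19, Rfwd3 on chromosome 8 and Top3a on chromosome 11. They fell by 0.48, 0.39, 0.45 and 0.31 beside neighbour medians of -0.20, -0.26, -0.22 and -0.18. The count of 10 fell to 5 without iPS replicate 1 or iPS replicate 2 and to 4 without ntES replicate 2. It became 24 without ntES replicate 3. Over all probe sets the 1431 lower calls became 562, 547, 545 and 2785 on leaving out the same arrays in that order. The count of 0 higher became 6 without ntES replicate 1 and 1 without ntES replicate 3. The 1212 higher calls over all probe sets became 1735 and 2259 there. After quantile normalization 27 were lower and 18 higher, beside 3696 and 3339 of all 23344 probe sets. The absence of higher calls in the list thus depended on the scaling.

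**Figure D4:**
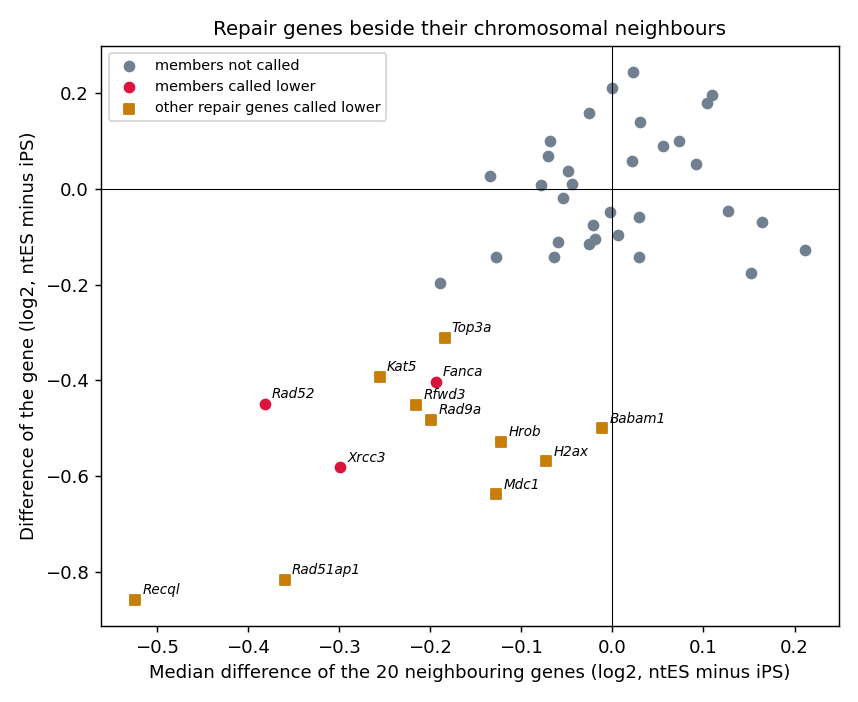
Difference of each repair gene (log2, ntES minus iPS, vertical axis) against the median difference of its 20 neighbouring genes (14 for Brca2, horizontal axis). Circles are the 35 members and squares the 10 other repair genes called lower. Xrcc3, Rad52, Fanca, Recql and Rad51ap1 lie at the lower left, where gene and neighbours were both lower. H2ax, Mdc1, Hrob and Babam1 lie at neighbour medians from -0.13 to -0.011.

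The letters TTTCCCGC, a form of the E2F site found before many S phase genes, occurred in the promoter windows of 5 of the 29 members with a window. Over all windows of 250 bases the share was 0.895%. The 29 members had 33 windows, so a count of genes stands here beside a share of windows. They are shown as matches to a cell cycle motif that is rare among all windows, although CCAAT and GGGCGG occurred in more of the members. None of the 5 was among the lower members. The stretches shown for Brca2, Chek2, Fancg and Xrcc6 lie in the annotated span of the gene, and only that of Bard1 lies outside it. Capitals mark the motif, written GCGGGAAA where it lies on the other strand, with GRCm38.p6 positions from RefSeq.
Bard1 (chr1:71103163-71103192, minus strand): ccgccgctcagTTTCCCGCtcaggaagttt
Brca2 (chr5:150522442-150522471, plus strand): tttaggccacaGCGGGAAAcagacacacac
Chek2 (chr5:110839820-110839849, plus strand): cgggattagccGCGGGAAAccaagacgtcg
Fancg (chr4:43010335-43010364, minus strand): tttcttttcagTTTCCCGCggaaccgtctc
Xrcc6 (chr15:82016312-82016341, plus strand): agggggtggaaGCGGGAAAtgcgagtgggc

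Their differences were 0.18, -0.18, 0.16, 0.052 and -0.058, on both sides of 0. The windows of Xrcc3, Rad52 and Fanca did not hold these letters, which says nothing on the factor. A second E2F form, TTTGGCGC, was in the windows of 0 of the 29 members and in 0.417% of all windows.

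Cell cycle and cell type markers give the setting of these values. The counts called, here and in the next paragraph, stand beside the shares over the array. Among the brighter probe sets 10.4% were called lower and 6.96% higher, and over all probe sets 6.13% and 5.19%. Of 24 measured S phase genes none passed, with a median of -0.062. Their mean level per array ran from 10.10 to 10.27 in iPS and from 9.94 to 10.30 in ntES cells. Of 24 genes of G2 and M phase, 7 were lower and none higher, with a median of -0.21 and array means of 10.48 to 10.68 and 10.16 to 10.57. The kinetochore motor Cenpe, Foxm1 and Cdc25c fell by 1.11, 0.64 and 0.49.

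The pluripotency markers Pou5f1, Sox2 and Nanog were far above the median probe set (7.66) on every array. These genes had iPS means of 11.72, 11.57 and 12.34 and ntES means of 11.55, 11.36 and 12.22. Dppa3, of the same list, lay above the median probe set on the iPS arrays and below it on the ntES arrays. Of the 20 pluripotency markers, 6 were lower and none higher. Their array means were 10.71 to 10.92 in iPS and 10.45 to 10.80 in ntES cells, and Dppa3, Esrrb and Tcl1 fell by 0.86, 0.79 and 0.75. Of 28 fibroblast and feeder markers, 9 were higher and 1 lower, with a median of 0.28 and array means of 9.85 to 10.15 in iPS and 10.11 to 10.41 in ntES cells. Timp3, Ccn2 and Postn rose by 0.89, 0.77 and 0.74. Of 6 genes of the 2-cell-like state 5 were higher, with array means of 7.17 to 7.27 in iPS and 8.26 to 8.53 in ntES cells, and Zfp352, Tdpoz3 and Gm5662 rose by 1.89, 1.85 and 1.69. The part of these markers in the differences of the repair genes was not tested.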

How the data were processed

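Log2 expression values of 23344 probe sets on 6 arrays were used as deposited by the authors. The log2 scale was taken from the values, which ran from 3.6 to 13.7. The submitters' processing notes name GCOS 1.4. For background correction, normalization, summary and build the sources used here name no method, so how far these steps shaped the values is unknown. Platform annotation gave 1 symbol for 20746 probe sets, several for 1183 and none for 1415. Groups came from the sample titles. All probe sets were fitted together, ntES minus iPS, with limma 3.58.1 in R 4.3.3 (lmFit, eBayes, no covariates). The code was tested on simulated data with independent noise for each value. Those data lack the array-wide shifts described above, so the test does not bear on the calls. Adjusted p values are limma's Benjamini-Hochberg values over all probe sets, with a threshold of 0.05. Errors are the standard error (SE) of a difference or the standard deviation (SD) over 3 arrays, and the number of arrays limits the precision. Levels of different probe sets were not compared.

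Members, lists and tests were chosen with earlier results of these data known. Values on each array were given for called members, the 3 highest and 3 lowest differences and 9 fixed genes. Of the further repair genes the 6 largest called differences were named, and of each marker list at most 3. Of the 19308 genes, 19266 matched the GRCm38.p6 table used for gene order. Promoter windows are RefSeq's, the 250 bases before a start. The alternatives were other scalings, filters, variance models, a replicate block, a stricter threshold, averaging a gene's probe sets and left-out arrays. A log transform of linear values was not needed. Figures used Python 3.11.15 with matplotlib 3.10.9.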

Additional observations from a re-analysis of the deposited data

How the results depend on the processing

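The count of 3 lower members became 5 after quantile normalization, 16 with array weights, and 1 with the unmoderated test and at an adjusted p of 0.01. It ran from 1 to 3 when each array was left out in turn. The count of 0 higher members became 7 after quantile normalization and 5 with array weights, and ran from 0 to 1 with left-out arrays. The array weights gave ntES replicate 2 a weight of 1354 and no other array more than 0.93, so that fit took the ntES level almost wholly from 1 array. The weights also stopped short of their convergence tolerance, and the counts from that fit are not reliable. Over all probe sets, the 1431 lower calls became 3696, 5964, 369 and 630 after quantile normalization, with array weights, with the unmoderated test and at 0.01, and ran from 545 without ntES replicate 2 to 2785 without ntES replicate 3. The 1212 higher calls became 3339, 9307, 334 and 520 in the same order, 1866 with a variance trend, and ran from 469 to 2259 on leaving out the same arrays. Without iPS replicates 1 or 2 the lower calls were 562 and 547 and the higher calls 572 and 495, and without iPS replicate 3 the higher calls were 737. The 10 lower repair genes became 27, 43, 1 and 5, and ran from 4 to 24. The 0 higher ones became 18 after quantile normalization, 19 with array weights, 3 with a variance trend and 3 without the 2 arrays of narrowest spread, and ran from 0 to 6. The cause was not tested.

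No called difference changed sign under any setting run. Of the members that did not pass, some near 0 did. With median centring Rad51c, Xrcc1, Brca1, Fancb and Fancg were at -0.030, -0.047, -0.050, -0.020 and -0.0054. After quantile normalization Rad50 and Fancl were at 0.011 and 0.0019. Fancg was at -0.0030 with array weights, Fancl at 0.048 without the 2 arrays of narrowest spread, and Bard1 at -0.049 as the mean of its probe sets. With left-out arrays the differences ran from -0.16 to 0.046 for Rad50, -0.030 to 0.092 for Rad51c, -0.021 to 0.034 for Xrcc1, -0.15 to 0.0097 for Xrcc4, -0.031 to 0.23 for Xrcc5, -0.13 to 0.0052 for Xrcc6, -0.076 to 0.13 for Brca1, -0.15 to 0.021 for Palb2, -0.0024 to 0.094 for Fancb, -0.023 to 0.11 for Fancg, -0.095 to 0.070 for Fancl and -0.013 to 0.19 for Fancm.

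The labels do not say whether same-numbered arrays shared more than the number. Their deviations from the group means correlated at -0.43, -0.10 and -0.72. The array-wide shifts described above enter these values, so they cannot decide it. With the replicate block 3 members were lower and 0 higher, and 1118 and 865 probe sets overall. Of the 10 lower repair genes 9 passed, Top3a being at an adjusted p of 0.161 by limma.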
